A study of Mus musculus with 44 samples.

Results

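The first day of RANKL treatment was examined in organoids of mouse small intestine, by comparing the 3 plates of single cells taken on day 1 with the 3 plates taken on day 0. RANKL is the TNF family cytokine that, in the epithelium over lymphoid follicles, binds the receptor RANK and turns intestinal precursors into M cells, which carry antigen from the gut lumen to the lymphoid tissue beneath. RANK signals through the canonical NF-kappaB pathway, in which degradation of the inhibitor encoded by Nfkbia frees RelA and p50, and through the non-canonical pathway, in which the kinase NIK processes the Nfkb2 product p100 to p52, the partner of RelB. The Ets family factor Spi-B is made early in this process and is needed for M cell maturation, while Sox8, Gp2 and Tnfaip2 are known as genes of more mature M cells.

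The 6 plates are those of days 0 and 1 among the 44 plates of the study, chosen by their labels and not by any measured value. They held 1227 deposited wells, of which the 1218 with 1000 or more unique molecular identifiers (UMIs, which count single RNA molecules) were kept, against 8231 of 8539 wells in the whole series. The organoids came from a female mouse of the genotype Lgr5GFPDTR/+, a knock-in at 1 allele of Lgr5, and how far that allele adds to the Lgr5 counts was not tested. Every plate of both days had the same history: growth in ENR medium (EGF, Noggin and R-spondin), 3 days with 3 µM of the GSK3 inhibitor CHIR99021 and 1.5 mM valproic acid, a histone deacetylase inhibitor, and then 1 day in ENR alone. The day 1 cells then had 100 ng/mL RANKL for a day and the day 0 cells were taken before it. A further 4 plates of days 1 and 0 came from a separate arm that received RANKL with 40 µM CSRM617, an inhibitor of the transcription factor ONECUT2. No untreated plates of day 1 were analysed here, so the change joins RANKL with a day more in culture and a day more after CHIR99021 and valproic acid.

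The day 1 plates held 252, 240 and 245 cells with 1640523, 1359403 and 1370518 UMIs. The day 0 plates held 229, 26 and 226 cells with 1101589, 155940 and 1201893 UMIs, so that day 0 plate 2 was by far the smallest. Median UMIs per cell were 6517, 5675 and 5499 on day 1 and 4688, 6470.5 and 5068 on day 0. No cell had over 3 times the median UMIs of its plate. Well barcodes are reused between plates by design: 356 of 381 well positions occurred in at least 2 of the 6 plates. Replicate plates differed by more than counting noise, the chi-square divided by the number of genes being 3.68 to 4.42 between day 1 plates and 3.46 to 10.7 between day 0 plates. The cells were epithelial by their markers: 7 epithelial genes summed to 4028 ± 104 CPM on day 1 and 4521 ± 264 CPM on day 0 (SD, n = 3 plates each), where CPM is the UMI count of a gene scaled to the library size with TMM. The 5 immune genes in the table had 8 UMIs in all day 1 cells and 1 in all day 0 cells, with Lyz2 at 0, and 5 genes of fibroblasts and endothelium had 5 UMIs on day 1 and 2 on day 0, with Dcn at 0. Whether plates hold separate cultures is not given in the labels, and the p-values therefore measure plate-to-plate spread, which could be technical.

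Of 10000 genes tested, 2375 changed between day 1 and day 0 (23.8%; edgeR quasi-likelihood test on UMIs summed per plate, Benjamini-Hochberg adjusted p under 0.05). Of these 1145 rose (11.4%) and 1230 fell (12.3%), and 551 rises and 658 falls were over 2-fold. The median log2 fold change of all tested genes was 0.004. The plates of day 1 and day 0 did not overlap in 34.4% of all tested genes, so a lack of overlap alone sets no gene apart. A sum over the cells of a plate cannot tell fewer cells of a type from less RNA per cell.

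Genes of 2 sets with opposite changes between these plates, NF-kappaB targets that rose and interferon-induced genes that fell, are shown first by the DNA just before their starts. In the arm with CSRM617 edgeR called 0 of 12 tested interferon genes, with 2 at an unadjusted p under 0.05, as given below. The 250 bases before each RefSeq start (table on GRCm38.p6) were searched on both strands for 2 forms of the kappaB site, GGG followed after 3 bases of any kind by TTCC or by TCCC, which can overlap each other, and for the interferon-stimulated response element as GAAA followed after 2 bases of any kind by GAAA. Each stretch below is 60 bases long, read 5′ to 3′ on the strand of the gene, with the matched letters in capitals. The first 4 belong to genes that rose and the last 4 to genes that fell.
Nfkbia: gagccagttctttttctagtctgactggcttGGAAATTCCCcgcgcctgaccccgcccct
Ccl20: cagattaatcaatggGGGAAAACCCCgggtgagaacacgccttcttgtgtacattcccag
Cxcl2: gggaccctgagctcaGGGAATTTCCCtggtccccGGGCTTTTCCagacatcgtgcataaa
Ubd: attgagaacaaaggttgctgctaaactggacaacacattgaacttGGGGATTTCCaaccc
Ifit1: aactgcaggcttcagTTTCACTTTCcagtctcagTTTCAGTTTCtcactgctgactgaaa
Ifit3: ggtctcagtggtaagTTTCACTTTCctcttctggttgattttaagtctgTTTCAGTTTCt
Isg15: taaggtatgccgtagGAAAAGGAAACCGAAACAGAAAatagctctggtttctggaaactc
Rsad2: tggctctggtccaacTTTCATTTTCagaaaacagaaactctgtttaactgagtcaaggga
The Nfkbia stretch lies at chr12:55492648-55492707 on the minus strand, that of Ccl20 at chr1:83116670-83116729, that of Cxcl2 at chr5:90903787-90903846 and that of Ubd at chr17:37193832-37193891, all on the plus strand. The Ifit1 and Ifit3 stretches lie at chr19:34640770-34640829 and chr19:34583358-34583417 on the plus strand, that of Isg15 at chr4:156200852-156200911 and that of Rsad2 at chr12:26456528-26456587, both on the minus strand. A kappaB match stood before 12 of the 21 genes with a RefSeq window among the 25 NF-kappaB pathway, target and chemokine genes that rose, against 12.8% of the 7942 tested genes with a window and 8.80% of all 32851 windows. The response element stood before 8 of the 18 genes with a window among the 23 interferon response genes that fell, against 3.05% of the tested genes with a window and 2.98% of all windows. Such matches are letters in a window, not binding sites. The genes were picked from lists of known NF-kappaB, chemokine and interferon genes and because they moved. A higher share of matches than in all tested genes is therefore no test of the change on day 1.

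The receptor and most genes of the non-canonical pathway rose. Tnfrsf11a, which encodes RANK (chromosome 1, 105780718 to 105847981, GRCm38), had 251, 271 and 247 CPM on day 1, against 45.1, 38.5 and 58.1 CPM on day 0. All 3 day 1 plates stood far above all 3 day 0 plates, with a log2 fold change of 2.35 ± 0.17 (SE, edgeR adjusted p = 4.9e-13). Nfkb2 (chromosome 19, 46304320 to 46312385) had 145, 97.1 and 81.8 CPM on day 1, against 9.20, 6.42 and 6.66 CPM on day 0, a log2 fold change of 3.77 ± 0.32 (adjusted p = 4.32e-11). Relb averaged 74.4 ± 13.5 CPM on day 1 and 11.1 ± 3.87 CPM on day 0 (log2 fold change 2.82 ± 0.30, adjusted p = 7.16e-09). Of the 10 tested members among 11 genes of RANK and the non-canonical pathway, 8 rose and none fell, where 11.4% of all tested genes rose. They included Map3k14, the gene of NIK, with 10.3 CPM on day 1 and 1.59 CPM on day 0 (log2 fold change 2.18, adjusted p = 0.0093), and also Traf2, Traf3, Birc2 and Birc3, whose products hold NIK at a low level in resting cells. Traf6, the adaptor of RANK, was at 35.9 CPM on day 1 and 42.4 CPM on day 0 (adjusted p = 0.72), and the kinase gene Chuk at 209 and 264 CPM (adjusted p = 0.063). Of the 5 canonical subunit and kinase genes only Nfkb1 passed the test, with 198 ± 28.9 CPM on day 1 and 94.0 ± 13.1 CPM on day 0 (log2 fold change 1.14 ± 0.17, adjusted p = 2.14e-06). Rela, Rel, Ikbkb and Ikbkg did not, with adjusted p-values from 0.18 to 0.78.

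Genes known as feedback inhibitors of NF-kappaB rose in 7 of 8 tested, where 11.4% of all tested genes rose. The count was the same when any 1 of the 6 plates was left out. The activity of NF-kappaB itself was not measured. Nfkbia, the gene of the inhibitor IκBα (chromosome 12, 55489410 to 55492647), had 1773, 1468 and 1414 CPM on day 1, against 171, 167 and 269 CPM on day 0. All 3 day 1 plates stood far above the highest day 0 plate, with a log2 fold change of 2.88 ± 0.15 (adjusted p = 3.95e-16). Tnfaip3, which encodes the deubiquitinase A20 (chromosome 10, 19000910 to 19015657), had 287, 320 and 341 CPM on day 1, against 10.1, 6.42 and 16.2 CPM on day 0 (log2 fold change 4.64 ± 0.26, adjusted p = 1.48e-15). Nfkbie, Nfkbib, Bcl3, Tnip1 and Cyld rose by 2.65, 1.82, 1.92, 1.82 and 0.91 on the log2 scale, and Nfkbiz was the exception at -0.15 (adjusted p = 0.66). With every well thinned to 1000 UMIs, 6 of the 8 could be tested and 3 rose, where 6.49% of all tested genes rose.

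Several cytokine and chemokine genes were low or near 0 on day 0 and clearly higher on day 1. Ccl20, whose product attracts CCR6-bearing lymphocytes and dendritic cells (chromosome 1, 83116766 to 83119167), had 1314, 931 and 940 CPM on day 1, against 59.8, 19.2 and 90.4 CPM on day 0 (log2 fold change 3.96 ± 0.30, adjusted p = 3.08e-12). Cxcl2, a neutrophil chemokine, had 31.8, 14.5 and 27.3 CPM on day 1 and no UMI in any day 0 plate, at least 19.2-fold higher when 3 counts are set for the day 0 group (edgeR adjusted p = 9.3e-06). Cxcl1 and Cxcl16 rose by 3.47 ± 0.75 and 3.20 ± 0.31 on the log2 scale, Cx3cl1 fell by 1.19, and Ccl25 and Ccl28 did not pass the test. The fall of Cx3cl1 was not called without day 0 plate 3. Of 7 tested genes on the list of other targets 5 rose, where 11.4% of all tested genes rose. Members without a UMI on day 0 could pass the filter on low counts only through other days. With no filter 6 of all 9 rose. Ubd, a ubiquitin-like modifier, had 95.4, 62.7 and 40.9 CPM on day 1 and no UMI on day 0, at least 51.8-fold higher. Tnf had 54.9, 54.3 and 48.8 CPM on day 1, against 2.76, 0 and 2.86 CPM on day 0 (log2 fold change 4.28 ± 0.38, adjusted p = 1.26e-10). Icam1, an adhesion molecule, had 46 UMIs on day 1 and none on day 0, at least 8.17-fold higher. Sod2 was at 120 CPM on day 1 and 140 CPM on day 0 (adjusted p = 0.27). Among other receptors of the TNF family, 3 of 9 tested rose and 1 fell, led by Tnfrsf1b, the gene of TNF receptor 2, with 56.5 ± 3.99 CPM on day 1 and 7.77 ± 7.06 CPM on day 0 (log2 fold change 2.38 ± 0.34, adjusted p = 1.41e-06). The fall, of Ltbr, was lost without day 0 plate 2 (adjusted p = 0.0615) or 3 (0.487) and without day 1 plate 2 (0.119) or 3, and its day 0 plates ranged from 27.6 to 89.8 CPM.

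**Figure D1:**
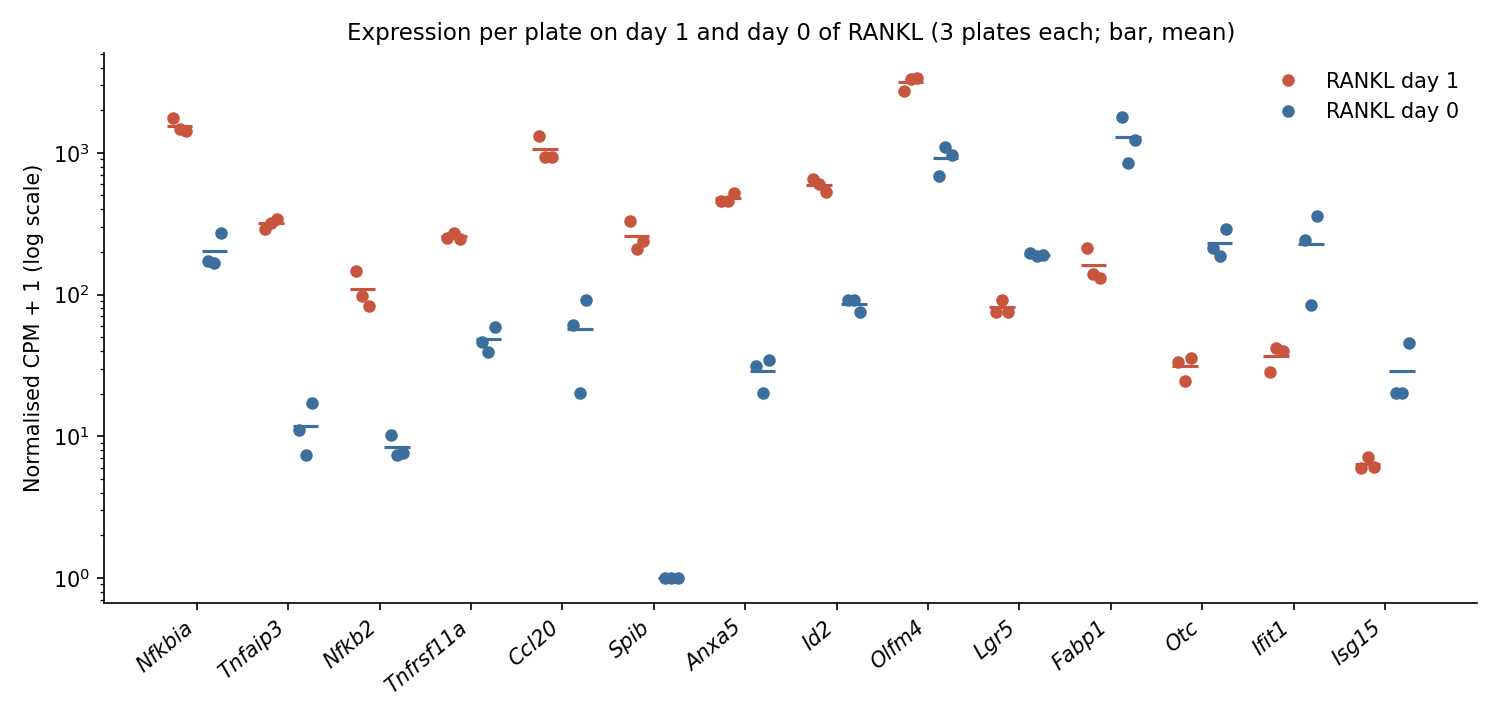
Normalised CPM plus 1 on a log axis for 14 genes in each plate, with the 3 day 1 plates left of the 3 day 0 plates and a bar at each mean. Genes of RANK and NF-kappaB signalling and of M cells stood higher on day 1, from 1551 against 202 CPM on average for Nfkbia to 108 against 7.43 CPM for Nfkb2, while Lgr5, Fabp1, Otc, Ifit1 and Isg15 stood lower. The groups of points do not overlap for any of the 14, which were chosen with earlier results known. The same holds for 34.4% of all tested genes.

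Of the M cell genes, Spib and effector genes were counted on day 1, while genes of mature M cells were almost absent. Spib (chromosome 7, 44525993 to 44532071) had 332, 209 and 236 CPM on day 1 and no UMI in any of the 481 day 0 cells, at least 201-fold higher (adjusted p = 2.83e-14). The other M cell transcription factors were too low to test: Sox8 had 3 UMIs in the 3 day 1 plates and none on day 0, and Esrrg had 1 on each day. Gp2 and Tnfaip2 had 1 UMI each on day 1 and none on day 0. Of the 17 genes on the list of M cell surface and effector genes, 15 were in the table and 9 passed the filter on low counts. These 9 rose, also when any 1 of the 6 plates was left out, and 9 of all 15 rose with no filter. Anxa5, a phospholipid-binding annexin (chromosome 3, 36448923 to 36475894), had 453, 453 and 523 CPM on day 1, against 30.4, 19.2 and 33.3 CPM on day 0 (log2 fold change 3.95 ± 0.19, adjusted p = 3.59e-17). Marcksl1, an actin-binding substrate of protein kinase C, averaged 438 ± 39.5 CPM on day 1 and 65.5 ± 16.7 CPM on day 0 (log2 fold change 2.87 ± 0.18, adjusted p = 2.58e-14). Ccl9, a chemokine for dendritic cells, had 91.7, 62.7 and 60.3 CPM on day 1, against 2.76, 0 and 1.90 CPM on day 0 (log2 fold change 4.97 ± 0.53, adjusted p = 5.2e-09). Rac2, a GTPase better known from blood cells, had 193 UMIs on day 1 and 1 on day 0, a ratio of 103 with a 95% counting interval of 18.2 to 4081. Such intervals and bounds cover counting error only. Serpinb1a rose by 2.28 on the log2 scale, and Cyba, Pglyrp1, Ctsh and Clec2h by 2.86, 1.92, 1.21 and 1.03.

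Of the 12 largest rises by the naming rule, 5 were on none of the lists. Mreg, which encodes melanoregulin, had 80.4, 115 and 105 CPM on day 1, against 0.920, 6.42 and 5.71 CPM on day 0 (log2 fold change 4.79 ± 0.34, adjusted p = 4.38e-13). Guca2b, the gut hormone uroguanylin, had 613, 291 and 282 CPM on day 1, against 13.8, 19.2 and 26.7 CPM on day 0 (log2 fold change 4.30 ± 0.48, adjusted p = 1.18e-08). Adgrd1, an adhesion G protein-coupled receptor, Slc17a8, a vesicular glutamate transporter, and Serpina1b had no UMI on day 0 and 69, 56 and 32 UMIs on day 1, at least 12.2-fold, 9.94-fold and 5.68-fold higher. In wells thinned to 1000 UMIs the calls of Adgrd1, Slc17a8 and Serpina1b were lost (adjusted p = 0.0553, 0.0691 and 0.0655). Serpina1b has near-identical neighbours in the genome, so its reads may be split among them. H2-M2, a non-classical MHC class I gene (chromosome 17, 37480851 to 37483552), also had no UMI on day 0 and had 89.2, 84.1 and 64.6 CPM on day 1, at least 60.9-fold higher (adjusted p = 1.06e-11).

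The breadth of these changes over cells differed from gene to gene. In wells thinned to 1000 UMIs, which puts cells of unequal depth on 1 scale, Nfkbia was seen in 71.8% ± 2.23 of day 1 cells and 14.1% ± 2.43 of day 0 cells (SD, n = 3 plates each). Without thinning these shares were 95.7% and 55.1%. Ccl20 was seen in 45.8% ± 1.84 of thinned day 1 cells and 2.63% ± 2.44 of thinned day 0 cells, and in 84.0% and 15% without thinning. Tnfaip3 was seen in 25.1% ± 3.36 of day 1 cells and 1.87% ± 1.77 of day 0 cells after thinning. Spib was seen in 16.9% ± 1.49 of thinned and 44.3% ± 5.18 of unthinned day 1 cells, and in 0 of 481 unthinned day 0 cells, pooled over the plates. For counting error alone that allows up to 0.624% of cells with a Spib UMI, and it sets no limit on cells that express the gene. These shares were not tested, since 3 plates against 3 cannot go below an exact permutation p of 0.1.

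**Figure D2:**
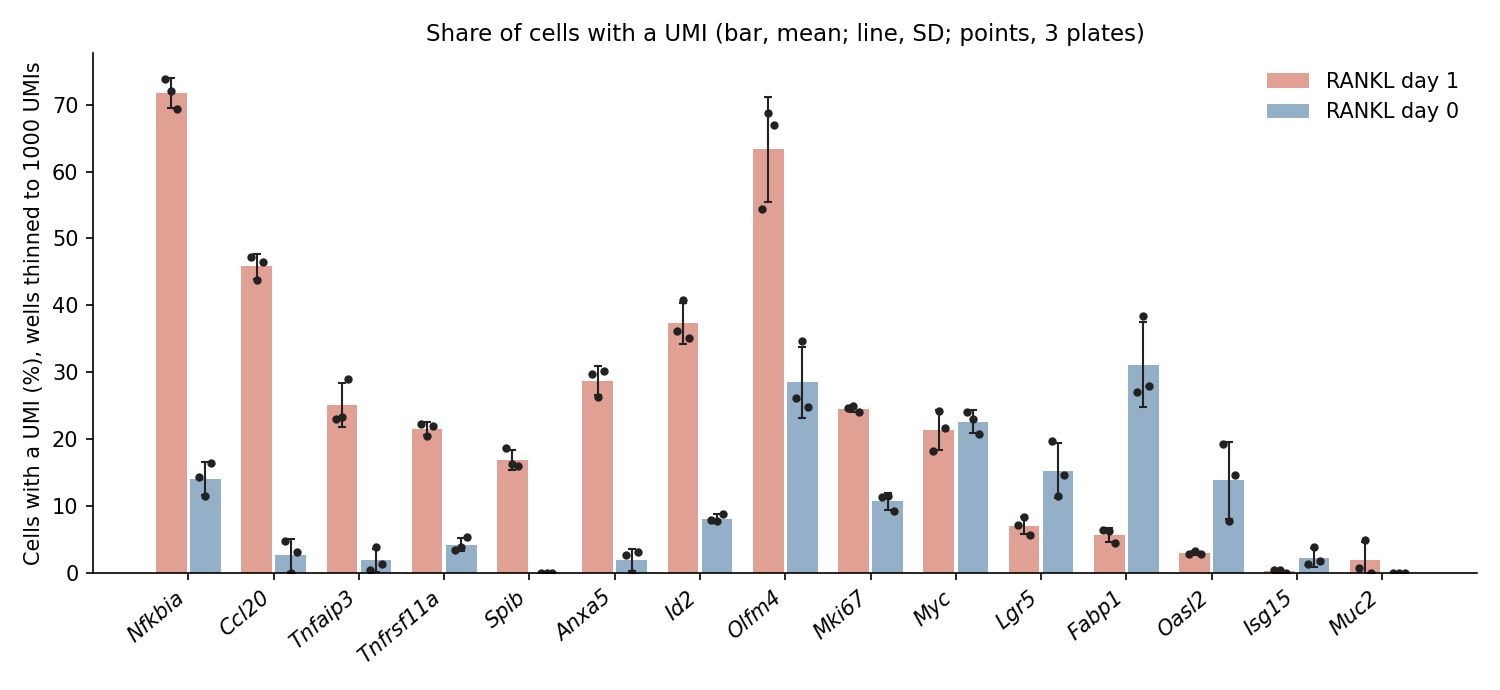
Share of cells with at least 1 UMI, in percent of the cells of a plate after thinning each well to 1000 UMIs, for 15 genes, with day 1 left of day 0. Bars are means over 3 plates, lines are SDs and points are plates. Nfkbia reached 71.8% of day 1 cells against 14.1% of day 0 cells, whereas Spib reached 16.9% on day 1 and 0 on day 0, and Fabp1 stood at 5.70% against 31.1%.

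Day 1 cells with and without a Spib UMI were then set side by side, as a description without a test. There were 120, 92 and 115 cells with a Spib UMI in the 3 plates and 132, 148 and 130 without. Cells with one were somewhat deeper, with median UMIs of 6625.5, 5969.5 and 5980 per plate, against 6312.5, 5393 and 5074.5 in cells without, so both sets were thinned to 1000 UMIs. The 15 M cell effector genes summed to 5.02 ± 0.36 UMIs per 1000 in cells with Spib and 2.05 ± 0.27 in cells without (SD, n = 3 plates), and the sets of plates did not overlap. The 8 NF-kappaB feedback genes summed to 2.41 ± 0.21 UMIs with Spib and 1.90 ± 0.20 without. Serpinb1a was seen in 66.5% ± 7.79 of cells with Spib and 41.4% ± 2.77 of cells without, and Nfkbia in 80.0% ± 3.13 and 65.3% ± 2.18. Cell cycle genes were at like levels, with mitosis genes at 4.12 ± 0.14 UMIs per 1000 with Spib and 4.42 ± 0.35 without, and Mki67 in 24.3% and 24.6% of cells. Enteroendocrine genes were few in both sets, at 0.029 ± 0.013 UMIs per 1000 with Spib and 0.176 ± 0.064 without. When only day 1 wells without a Spib UMI were summed and tested against day 0, 7 of 8 tested M cell effector genes and 6 of 7 feedback genes still rose, where 9.05% of all tested genes rose. A cell without a Spib UMI may still hold Spib RNA that was not captured.

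Id1, Id2 and Id3 encode inhibitors of basic helix-loop-helix factors, are known targets of BMP signals, and all rose. Id2 had 658, 599 and 529 CPM on day 1, against 90.2, 89.8 and 74.2 CPM on day 0 (log2 fold change 2.84 ± 0.16, adjusted p = 7.32e-16). Id3 averaged 180 ± 12.1 CPM on day 1 and 27.7 ± 14.6 CPM on day 0, and Id1 132 ± 16.4 and 38.0 ± 6.39 CPM, with log2 fold changes of 2.77 ± 0.28 and 1.79 ± 0.19. Bmp2, a ligand of the pathway, had 192, 155 and 140 CPM on day 1, against 32.2, 12.8 and 34.3 CPM on day 0 (log2 fold change 2.37 ± 0.26, adjusted p = 1.12e-08). Of 8 tested genes on this list 5 rose, the fifth being the inhibitory Smad7, and none fell, while the receptor gene Bmpr1a stood at 140 CPM on day 1 and 183 CPM on day 0 (adjusted p = 0.051). Of 9 tested Notch pathway genes 3 rose and 1 fell. Without day 0 plate 1 or 2, or without day 1 plate 2 or 3, 2 of them rose. Of all tested genes 11.4% rose and 12.3% fell, so 1 fall among 9 Notch genes was near that share. Hes1, a main target of the pathway in the gut, was the 1 that fell, with 224, 235 and 296 CPM on day 1, against 508, 488 and 573 CPM on day 0 (log2 fold change -1.07 ± 0.15, adjusted p = 1.02e-06). The ligand gene Dll1 rose to 93.9 ± 18.6 CPM on day 1, against 45.9 ± 21.9 CPM on day 0 (log2 fold change 1.32 ± 0.24, adjusted p = 6.88e-05), and Atoh1, which Hes1 represses, was at 5.53 and 3.73 CPM (adjusted p = 0.967).

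Stem cell genes split. Olfm4, a marker of crypt base cells, had 2750, 3328 and 3372 CPM on day 1, against 686, 1091 and 961 CPM on day 0 (log2 fold change 1.81 ± 0.19, adjusted p = 2.48e-09). Ascl2, a Wnt-driven stem cell factor, had 114, 113 and 89.7 CPM on day 1, against 23, 44.9 and 29.5 CPM on day 0 (log2 fold change 1.92 ± 0.24, adjusted p = 1.57e-07). Lgr5, the R-spondin receptor, went the other way, with 74.8, 91.0 and 74.6 CPM on day 1, against 194, 186 and 190 CPM on day 0 (log2 fold change -1.26 ± 0.15, adjusted p = 5.3e-08). Rgcc and Smoc2 fell with it, by 2.28 and 0.74 on the log2 scale, while Slc12a2, Msi1, Tnfrsf19 and Aqp4 rose by 1.22, 1.50, 1.90 and 0.80. In all, 6 of the 13 stem cell genes rose and 3 fell, where 11.4% of all tested genes rose and 12.3% fell. Of 11 tested Wnt targets and regulators 3 rose and 1 fell, led by Cd44 with 625 ± 14.8 CPM on day 1 and 154 ± 38.8 CPM on day 0 (log2 fold change 2.13 ± 0.14, adjusted p = 5.77e-14), and the feedback gene Axin2 was at 95 and 87.7 CPM (adjusted p = 0.95). The rise of Ephb3 (adjusted p = 0.0334) was lost without day 0 plate 1 or 3 or day 1 plate 1, which leaves 2 rises. Genes of the injured or fetal-like epithelium were low. With no filter on low counts 6 of 11 rose and 1 fell, and with the filter 5 of 9 tested rose. Among them were Anxa3, with 53.3 ± 3.50 CPM on day 1 and 7.79 ± 3.18 CPM on day 0 (log2 fold change 2.67 ± 0.42, adjusted p = 8.07e-06), and Clu, with 18.2 ± 2.30 and 1.27 ± 2.20 CPM (log2 fold change 3.29 ± 0.69, adjusted p = 0.000409). The YAP targets Ccn1 and Ccn2 on the same list did not pass (adjusted p = 0.25 and 0.089).

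Most genes of mitosis rose. Of 25 mitosis genes 20 rose and none fell, with a median log2 fold change of 0.91, where 11.4% of all tested genes rose. The count of rises was 14 to 24 when 1 of the 6 plates was left out, and 14 without day 0 plate 3. In wells thinned to 1000 UMIs 11 of 22 tested mitosis genes rose, with a median of 0.93. Mki67, the proliferation antigen, had 318, 362 and 342 CPM on day 1, against 154, 122 and 160 CPM on day 0 (log2 fold change 1.17 ± 0.25, adjusted p = 0.000659). Cenpe, a kinetochore motor, had 195, 177 and 192 CPM on day 1, against 70.9, 51.3 and 76.1 CPM on day 0 (log2 fold change 1.41 ± 0.28, adjusted p = 0.000228). Of 26 tested genes of DNA replication 4 rose, a share near that of all tested genes, with a median log2 fold change of 0.22. That count was 1 without day 0 plate 1, without day 0 plate 3 or without day 1 plate 2, 2 without day 1 plate 3, and 6 without day 1 plate 1. Mki67 was seen in 24.6% ± 0.46 of thinned day 1 cells and 10.7% ± 1.25 of thinned day 0 cells. Ribosome biogenesis genes rose in 4 of 21 tested, led by Nop58 with 358 ± 7.10 CPM on day 1 and 216 ± 29.2 CPM on day 0 (log2 fold change 0.71 ± 0.19, adjusted p = 0.00552). In thinned wells 1 of 18 ribosome biogenesis genes and 1 of 22 replication genes rose, where 6.49% of all tested genes rose. Myc did not pass the test, with 195, 251 and 295 CPM on day 1, against 320, 321 and 257 CPM on day 0 (log2 fold change -0.26 ± 0.16, adjusted p = 0.244). Its relatives Mycl and Mxd1 rose, Mycl to 209 ± 43.3 CPM on day 1, against 37.8 ± 5.59 CPM on day 0 (log2 fold change 2.39 ± 0.21, adjusted p = 7.63e-11). Of 11 tested genes of G1 control (cyclins, their kinases and kinase inhibitors) 1 rose and 1 fell: Cdk6, a G1 kinase, averaged 381 ± 39.0 CPM on day 1 and 239 ± 93.5 CPM on day 0 (log2 fold change 0.83 ± 0.18, adjusted p = 0.000687), and Ccnd2, a D-type cyclin, 244 ± 11.1 and 429 ± 28.1 CPM (log2 fold change -0.81 ± 0.21, adjusted p = 0.00387). Of 10 tested p53 targets 1, Zmat3, rose, to 70.8 ± 6.90 CPM on day 1, against 31.9 ± 12.1 CPM on day 0 (log2 fold change 0.95 ± 0.19, adjusted p = 0.000189). Both lists thus hold rises at about the share of all tested genes, 11.4%.

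Genes of absorptive cells moved at the same time, and their part in the changes above was not tested beyond the comparison given here. The share of a cell's UMIs in 41 genes of the brush border and lipid uptake had a plate median of 0.105%, 0.088% and 0.0968% on day 1, against 0.414%, 0.373% and 0.457% on day 0. Of day 1 cells 80.6%, 86.7% and 86.5% lay below 0.429%, the median of all day 0 wells, against 50.2%, 57.7% and 48.7% of day 0 cells. When only wells below that value were compared, 6 of 25 mitosis genes rose, with a median log2 fold change of 0.41, while 9 of 9 M cell effector genes and 7 of 8 feedback genes did, with medians of 2.89 and 2.09. By edgeR 11 mitosis genes were higher at an unadjusted p under 0.05. Brush border genes still fell in 4 of 8 tested and lipid genes in 6 of 15, with medians of -0.85 and -0.64. The wells compared were thus not matched between days for absorptive genes. Of 25 tested replication genes none rose by edgeR there and 1 fell, with 0 higher and 8 lower at an unadjusted p under 0.05 and a median of -0.30. Of 21 ribosome biogenesis genes none rose by edgeR, with 1 higher at an unadjusted p under 0.05 and a median of 0.012. The medians of the mitosis, replication and ribosome biogenesis genes were thus lower than in the comparison of all wells. Of all 7959 genes tested there 930 were called, 6.81% of those tested as higher and 4.87% as lower. Stem cell genes split there too, with 4 rises and 6 falls.

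**Figure D3:**
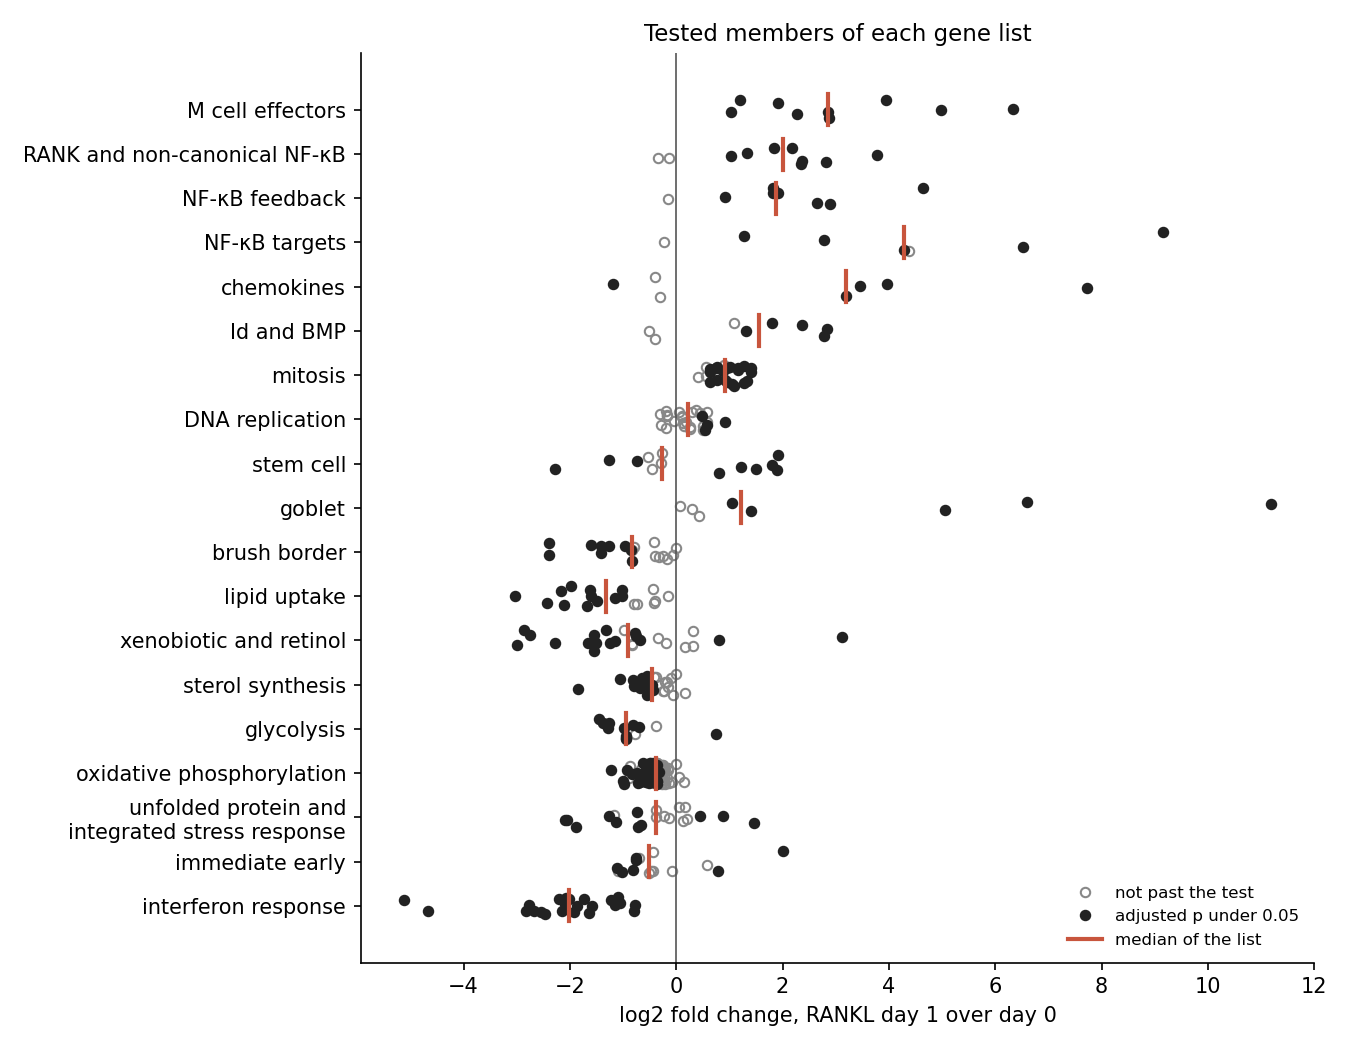
Log2 fold change of each tested member of 19 gene lists, day 1 over day 0. Filled points passed the test at an adjusted p of 0.05, open points did not, and the vertical bar is the median of the list, at 2.86 for M cell effectors, 0.91 for mitosis, -1.32 for lipid uptake and -2.02 for the interferon response.

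Genes of absorptive cells fell. Of 18 tested genes of lipid uptake and chylomicrons 12 fell and none rose, where 12.3% of all tested genes fell. The median log2 fold change of this list was -1.32. Fabp1, the liver-type fatty acid-binding protein (chromosome 6, 71199827 to 71205023), had 213, 139 and 131 CPM on day 1, against 1788, 847 and 1225 CPM on day 0 (log2 fold change -3.03 ± 0.37, adjusted p = 1.07e-07). The sterol exporter genes Abcg5 and Abcg8 fell by 2.12 ± 0.28 and 2.17 ± 0.28 on the log2 scale and Rbp2, a retinol carrier, by 2.43 ± 0.36. The apolipoprotein genes were less uniform: Apoc3 fell by 1.60, whereas Apoa1 was at 376 CPM on day 1 and 427 CPM on day 0 (adjusted p = 0.81) and Apoa4 at 97.9 and 152 CPM (adjusted p = 0.62). Of 18 tested brush border genes 9 fell and none rose, and with no filter on low counts 11 of 21 fell and 1 rose. In wells thinned to 1000 UMIs 2 of 12 brush border genes fell, where 6.86% of all tested genes fell. Alpi, the intestinal alkaline phosphatase, had 338, 221 and 306 CPM on day 1, against 875, 539 and 1124 CPM on day 0 (log2 fold change -1.60 ± 0.31, adjusted p = 0.00018), while the sucrase-isomaltase gene Sis, at 1571 CPM on day 1 and 2708 CPM on day 0, did not pass (adjusted p = 0.09). Among transcription factors of the gut lineage Nr1h4, the bile acid receptor FXR, fell by 2.42 ± 0.32 and Ppara by 1.96 ± 0.50 on the log2 scale. Hnf4a stood at 410 CPM on day 1 and 475 CPM on day 0 (adjusted p = 0.16) and Cdx2 at 36.7 and 38.4 CPM (adjusted p = 0.71). In all, 3 of 16 tested lineage factors rose and 7 fell, where 11.4% of all tested genes rose and 12.3% fell. Sox4 rose to 810 ± 26.3 CPM on day 1, against 291 ± 91.3 CPM on day 0 (log2 fold change 1.40 ± 0.15, adjusted p = 9.17e-09), and Onecut2, the target of CSRM617, had 703, 726 and 775 CPM on day 1, against 422, 257 and 443 CPM on day 0 (log2 fold change 0.90 ± 0.15, adjusted p = 1.78e-05).

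Metabolic enzymes of enterocytes were among the deepest falls. Hsd17b13, a lipid droplet dehydrogenase, had 26.8, 6.12 and 14.3 CPM on day 1, against 343, 289 and 384 CPM on day 0 (log2 fold change -4.40 ± 0.33, adjusted p = 2.83e-12). Otc and Cps1, the mitochondrial steps of citrulline synthesis, fell by 2.96 ± 0.22 and 1.74 ± 0.14 on the log2 scale, Cps1 to 306 ± 36.1 CPM on day 1, against 1013 ± 146 CPM on day 0. Of 7 tested urea cycle and arginine genes 3 fell and 1, the glutamine synthetase gene Glul, rose. For this list and the next, the shares of all tested genes were 12.3% for falls and 11.4% for rises. Of 24 tested genes of xenobiotic metabolism 14 fell and 2 rose, with Ces2a, a carboxylesterase, at 159, 81.0 and 89.0 CPM on day 1, against 875, 783 and 958 CPM on day 0 (log2 fold change -2.99 ± 0.29, adjusted p = 8.61e-10). The 2 that rose were Gclc, the first enzyme of glutathione synthesis, and Cyp1a1, and the call of Cyp1a1 was lost without day 0 plate 1 or 3 (adjusted p = 0.0547 and 0.09). Slc40a1, the iron exporter ferroportin, the membrane mucin gene Muc3, the cytidine deaminase gene Cda and the aldo-keto reductase gene Akr1c14 fell by 2.83, 2.81, 2.77 and 3.03 on the log2 scale.

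Glycolysis genes fell in 10 of 13 tested, where 12.3% of all tested genes fell. Aldoa had 512, 412 and 467 CPM on day 1, against 1449, 1059 and 1254 CPM on day 0 (log2 fold change -1.45 ± 0.18, edgeR adjusted p = 1.91e-07). Hk2, a hexokinase, was the gene that rose, to 133 CPM on day 1, against 86.2 CPM on day 0 (adjusted p = 0.0061), a call lost without day 0 plate 3. Nuclear genes of oxidative phosphorylation fell in 29 of 76 tested with a median log2 fold change of -0.38. This count was 19 without day 0 plate 2, 10 without day 1 plate 2 and 8 without day 1 plate 3. Sterol and fatty acid synthesis genes fell in 13 of 25 tested, in 6 without day 0 plate 1 and in 7 without day 1 plate 2. Insig1, the sensor that holds back sterol synthesis when sterol is ample, had the deepest fall of that list, with 342, 362 and 272 CPM on day 1, against 1286, 956 and 1210 CPM on day 0 (log2 fold change -1.84 ± 0.19, adjusted p = 3.97e-09). Ribosomal protein genes fell in 19 of 76 tested, but in 7 without day 0 plate 2, 6 without day 1 plate 2 and 5 without day 1 plate 3, in 28 without day 0 plate 1, and in 46 of 78 with no filter on low counts. In wells thinned to 1000 UMIs, where 6.86% of all tested genes fell, 5 of 69 ribosomal protein genes, 7 of 75 oxidative phosphorylation genes and 5 of 23 sterol genes fell. Day 0 plate 2, the plate of 26 cells, stood apart there: Rpl5 had 36.2, 27.5 and 40.9 CPM on day 1, against 58.0, 597 and 57.1 CPM on day 0. Ribosomal protein genes have near-identical copies in the genome, so their counts are uncertain.

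For goblet cell genes 1 plate decided the result. They rose in 5 of 8 tested, but in none by edgeR without day 1 plate 2, where 0 passed even an unadjusted p of 0.05, and in 2 without day 0 plate 1 or 3. Zg16, a granule lectin, had 19.95, 792 and 17.9 CPM on day 1 and no UMI on day 0, and its adjusted p of 0.00756 was 0.229 without day 1 plate 2. Muc2, the main gel mucin, had 8.11, 151 and 4.30 CPM on day 1, against 0, 0 and 0.952 CPM on day 0, so day 1 plate 2 held nearly all of it. Paneth and antimicrobial genes rose in 2 of 9 tested, and in 5 of 11 with no filter on low counts. The 2 rose without overlap between days: Mmp7, a matrix protease, averaged 197 ± 11.3 CPM on day 1 and 70.9 ± 29.7 CPM on day 0 (log2 fold change 1.70 ± 0.27, adjusted p = 1.01e-05), and Reg3g, a bactericidal lectin, 1510 ± 669 and 567 ± 218 CPM (log2 fold change 1.40 ± 0.24, adjusted p = 2.83e-05). The Paneth lysozyme gene Lyz1 was at 178 CPM on day 1 and 54.0 CPM on day 0 (adjusted p = 0.24). Enteroendocrine genes rose in 2 of 8 tested, but in 1 without day 0 plate 2 and in none without day 0 plate 3 or day 1 plate 2, where edgeR gave 0 and 2 rises at an unadjusted p under 0.05. Tuft cell genes rose in 1 of 6 tested, where 11.4% of all tested genes rose, a call that edgeR lost without day 0 plate 1 or 3.

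Interferon-induced genes fell. Of 26 genes on the list 23 passed the filter on low counts, and these 23 fell, where 12.3% of all tested genes fell, with a median log2 fold change of -2.02, and 19 to 23 fell when 1 of the 6 plates was left out. With no filter 23 of all 26 fell. Ifit1, which binds viral RNA, had 27.4, 41.3 and 38.7 CPM on day 1, against 240, 83.4 and 355 CPM on day 0 (log2 fold change -2.82 ± 0.41, adjusted p = 1.9e-06). Ifit3 had 3.12, 2.29 and 2.15 CPM on day 1, against 107, 51.3 and 98.0 CPM on day 0 (log2 fold change -5.12 ± 0.51, adjusted p = 2.01e-09). Isg15, a ubiquitin-like modifier, had 4.99, 6.12 and 5.02 CPM on day 1, against 19.3, 19.2 and 44.7 CPM on day 0 (log2 fold change -2.47 ± 0.47, adjusted p = 0.000154). Rsad2, the antiviral enzyme viperin, averaged 1.34 ± 1.26 CPM on day 1 and 43.9 ± 18.1 CPM on day 0. Factors of the response fell too, Irf9 by 2.08, Irf7 by 1.74 and Stat2 by 1.06 on the log2 scale. Irf1, which NF-kappaB also induces, rose by 1.27 (adjusted p = 0.00086). Oasl2 was seen in 14.2% of unthinned day 1 cells and 49.2% of unthinned day 0 cells. In wells low in enterocyte genes 9 of 15 tested interferon genes fell, where 4.87% of all tested genes fell, and their median log2 fold change was -1.09. Of 13 tested MHC class I and antigen processing genes 2 rose and 3 fell, with H2-K1 at 981 CPM on day 1 and 1157 CPM on day 0 (adjusted p = 0.23). Tapbp, the peptide-loading factor tapasin, rose to 165 ± 40.9 CPM on day 1, against 71.3 ± 2.68 CPM on day 0 (log2 fold change 1.21 ± 0.20, adjusted p = 1.28e-05). The 3 falls rest on single plates: edgeR called 0 of them, with 2 lower at an unadjusted p under 0.05, without day 0 plate 3, without day 1 plate 2 or without day 1 plate 3, and 1 without day 0 plate 1.

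Early response and stress genes moved in both directions. Among 15 tested immediate early genes 2 rose and 5 fell, and 3 fell without day 0 plate 1 or 3. Of all tested genes 11.4% rose and 12.3% fell, so the rises were near that share, as were those of the stress list below. Egr1 had 271, 314 and 374 CPM on day 1, against 739, 584 and 708 CPM on day 0 (log2 fold change -1.11 ± 0.17, adjusted p = 6.94e-06). Jun stood at 307 CPM on day 1 and 517 CPM on day 0 (adjusted p = 0.001), and Fos at 435 ± 25.9 and 568 ± 148 CPM (adjusted p = 0.151). Ier3, an NF-kappaB target, rose to 52.7 ± 16.8 CPM on day 1, against 14.8 ± 3.83 CPM on day 0 (log2 fold change 2.00 ± 0.30, adjusted p = 3.11e-06). Of 20 genes of the unfolded protein and integrated stress responses 8 fell and 3 rose. The falls were those of Atf4, of Atf5, Asns, Trib3 and Chac1, which it induces, and of Xbp1, Herpud1 and Dnajb9. Atf5 averaged 14.8 ± 6.43 CPM on day 1 and 62.9 ± 5.37 CPM on day 0 (log2 fold change -2.05 ± 0.29, adjusted p = 1.48e-06), and Asns, asparagine synthetase, 62.9 and 151 CPM (adjusted p = 1.1e-06). Calr and Sdf2l1 were among the 3 that rose. The chaperone genes Hspa5 and Hsp90b1 did not pass (adjusted p = 0.84 and 0.49), and Ddit4, an inhibitor of mTORC1, rose to 120 ± 30.4 CPM on day 1, against 42.2 ± 3.26 CPM on day 0 (log2 fold change 1.47 ± 0.24, adjusted p = 1.14e-05). Of 11 tested tight junction genes 3 rose and 5 fell, against 1 and 2 without day 0 plate 1. Cldn2, which forms cation pores, had 201, 192 and 238 CPM on day 1, against 695, 674 and 603 CPM on day 0 (log2 fold change -1.64 ± 0.17, adjusted p = 2.21e-09). Of 8 tested EGF family genes 4 fell, but 1 without day 0 plate 1 or day 1 plate 2 and 2 without day 0 plate 3. The ligand gene Hbegf fell to 69.2 ± 11.1 CPM on day 1, against 178 ± 67.6 CPM on day 0 (log2 fold change -1.50 ± 0.20, adjusted p = 6.38e-07).

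The later plates show which day 1 levels lasted, as values without a test. Nfkbia averaged 202 CPM on day 0, 1551 on day 1, 1662 on day 2 and 1518 on day 3, and Ccl20 56.5, 1062, 1306 and 1247 CPM. Spib was highest on day 1, at 259 CPM, with 184 on day 2 and 163 on day 3. Cxcl2 was likewise highest on day 1 and stood at 10.4 CPM on day 2 and 1.96 CPM on day 3. Olfm4 was raised on day 1 alone among the first days, with 913, 3150, 906 and 1038 CPM on days 0 to 3. Lgr5 went on downward, with 190, 80.1, 38.7 and 32.2 CPM, and Guca2b went on upward, with 19.9, 395, 457 and 1074 CPM.

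**Figure D4:**
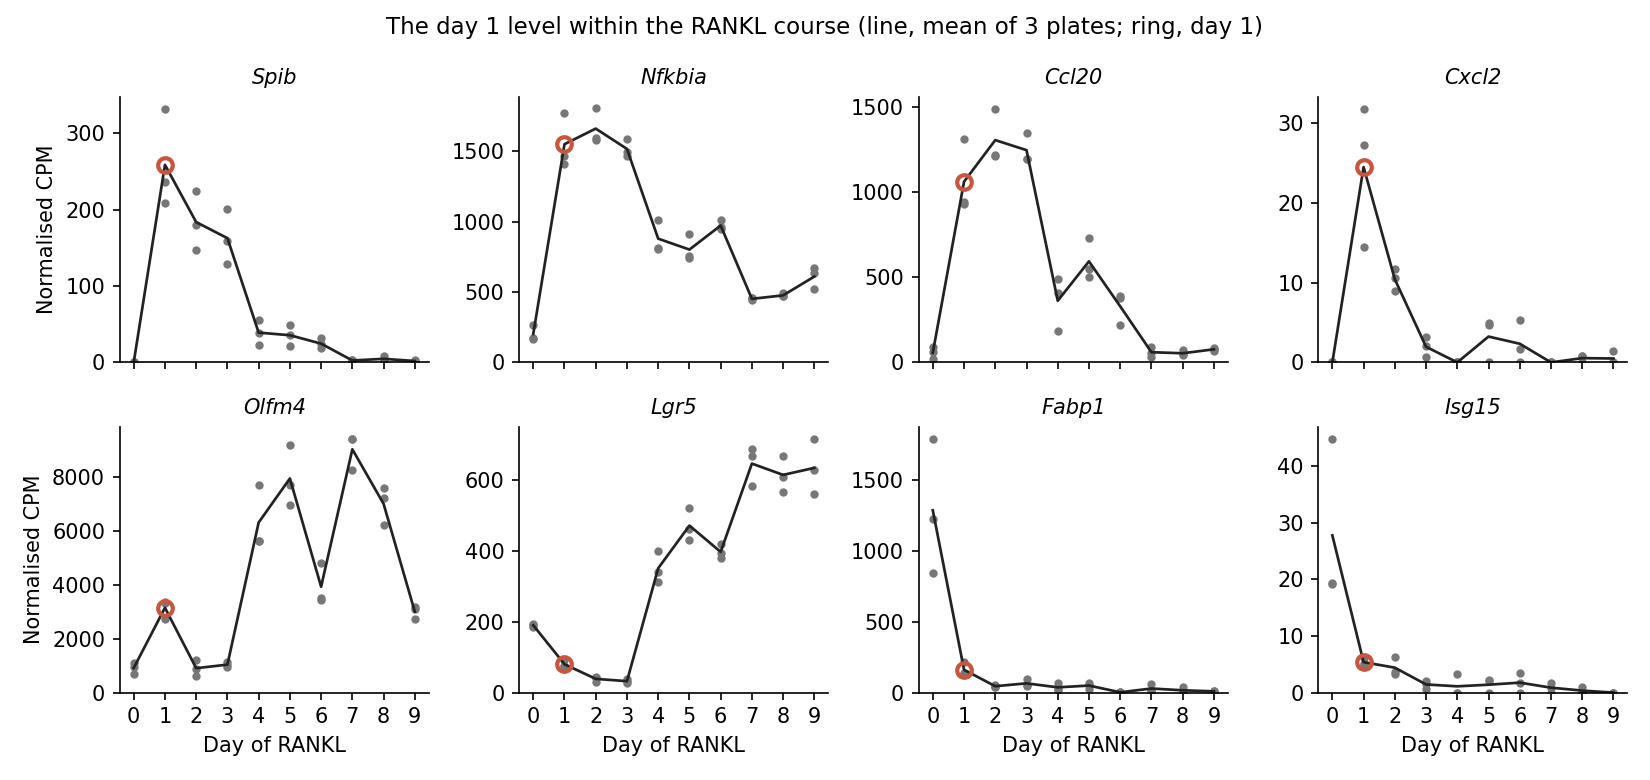
Normalised CPM of 8 genes on days 0 to 9 of RANKL, with plates as points, the mean of 3 plates as a line and a ring at day 1. Spib and Cxcl2 were highest on day 1, Nfkbia and Ccl20 stayed near their day 1 level until day 3, and Olfm4 on day 1 (3150 CPM) stood above days 0, 2 and 3.

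The same day was sampled apart from these plates in the arm that also received CSRM617, with 2 plates a day, 223 and 192 cells on day 1 and 179 and 166 on day 0. There 284 of 6499 tested genes changed (4.37%), a count of 112 to 185 when any of its 4 plates was left out. Of the 1854 genes called in the RANKL arm and tested there, 1600 moved in the same direction (86.3%), against 63.0% of 4630 genes that were not called. Of the 281 genes called in the CSRM617 arm and tested in the RANKL arm, 241 were called in both (85.8% of them and 13% of the 1854), and 240 of these had the same sign. For comparison, among all genes tested in both arms 1854 were called in the RANKL arm and 4630 were not. Nfkbia, Tnfaip3 and Ccl20 rose there by 3.32, 4.28 and 5.30 on the log2 scale and Anxa5 and Olfm4 by 2.34 and 2.21. Spib rose too, with 88.7 and 64.0 CPM on day 1 and no UMI on day 0 of that arm (adjusted p = 0.000116). Fabp1 fell by 3.59. Of 24 tested mitosis genes edgeR and DESeq2 called 0 there, with 1 (edgeR) and 0 (DESeq2) at an unadjusted p under 0.05 and a median log2 fold change of 0.21. DESeq2 called 181 genes in this arm.

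The difference between the 2 changes was tested as an interaction over both arms. Of 8766 genes, 32 differed (0.365%), 5 (0.057%) with a more positive change in the RANKL arm and 27 with a more negative one. This count fell to 13 without day 0 plate 2 of the CSRM617 arm, to 15 without day 0 plate 3 of the RANKL arm, and to 16, 18, 20 and 21 without day 1 plate 2, day 1 plate 1 or day 0 plate 1 of the CSRM617 arm or day 1 plate 2 of the RANKL arm. Of 8 tested M cell effector genes, 8 NF-kappaB feedback genes and 24 mitosis genes none was among them, which does not show that their changes were alike. Of 19 tested interferon genes 5 were, namely Oasl2, Rtp4, Irf7, Xaf1 and Parp14. Oasl2 had 28.1, 34.8 and 38.5 CPM (scaled over both arms) on day 1 of RANKL, against 235, 184 and 223 CPM on day 0 of RANKL. In the CSRM617 arm it had 39.0 and 26.9 CPM on day 1, against 16.3 and 5.5 CPM on day 0. The day 1 plates of the arms thus overlapped for this gene and the day 0 plates were far apart, although the labels give both arms the same protocol up to day 0. For Rtp4, a receptor transporter that interferon induces, the day 1 plates did not overlap but lay close, with 26.3, 26.9 and 30.3 CPM on day 1, against 213, 177 and 180 CPM on day 0 of RANKL, and 36.8 and 36.5 CPM on day 1, against 18 and 2.75 CPM on day 0 of the CSRM617 arm. Of 12 interferon genes tested within the CSRM617 arm edgeR and DESeq2 called 0, with 2 (edgeR) and 0 (DESeq2) at an unadjusted p under 0.05, and the median log2 fold change was 0.19.

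**Figure D5:**
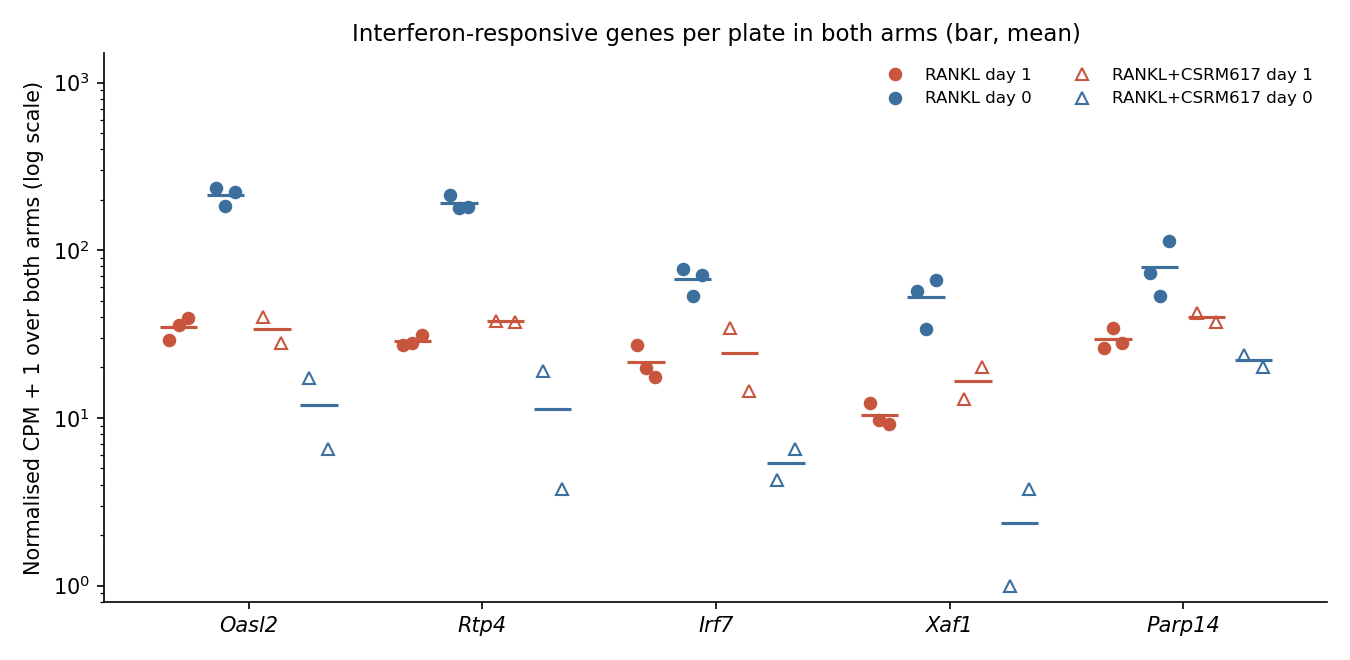
Normalised CPM plus 1, scaled over both arms and on a log axis, for 5 interferon-induced genes in each plate, with day 1 left of day 0 within each arm (filled circles RANKL, open triangles RANKL+CSRM617, bars at means). For Oasl2 the RANKL day 0 plates stand between 184 and 235 CPM, and every other plate stands at or under 39.0 CPM.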

How the data were processed

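Libraries came from sorted cells, 1 per well of a 384-well plate, by a CEL-Seq2 protocol with UMIs, per the labels. The deposited values are raw UMI counts per gene and well, which the authors made with kallisto and bustools on GRCm38, per the submitters' processing notes, which also name Seurat 3.1.5. Counts of wells holding at least 1000 UMIs were summed per plate. edgeR 4.0.16 (R 4.3.3; TMM, filterByExpr, quasi-likelihood test over all 30 RANKL plates, Benjamini-Hochberg threshold 0.05) compared day 1 with day 0, and the interaction was fitted over both arms. A gene without a UMI in a group was bounded at 3 counts over the group.

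Named genes are the 12 largest rises and falls past the test, among genes without overlap of plates and averaging at least 5 log2 CPM (Gm and Rik symbols left out), up to 4 called members of each list, genes of prior interest, and the 5 largest interactions of each sign. Other members that the text gives with values were added to describe their lists after their values were seen. The members and lists were chosen with earlier results of these data known. Alternatives were DESeq2 1.42.0, other scalings and filters, thinned wells and left-out plates. On simulated data for the RANKL comparison (9717 genes) 88% of 4-fold and 41% of 2-fold changes were recovered. For the CSRM617 arm 25% of 2-fold changes were recovered, and for the interaction 28%. Each simulation changed 100 genes by 2-fold and 100 by 4-fold, far fewer than the 23.8% called in the RANKL data. These shares therefore need not hold for the real comparison. Of 21099 symbols 20538 matched GENCODE M21, which gave the gene positions. Same-numbered plates of days 1 and 0 did not deviate together in the RANKL arm, and the CSRM617 arm has 2 pairs only, so the numbers were not used as pairs. Some genes that the rule names are not reported here.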

Additional observations from a re-analysis of the deposited data

Results flagged for a closer look

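The changes of 32 genes on the first day differed between the RANKL arm and the arm that also received CSRM617, by the interaction test of edgeR (adjusted p under 0.05). A selection of 11 of them is given here. Values are log2 differences, RANKL arm minus CSRM617 arm, and CPM are scaled over both arms.

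Of the negative differences, Rtp4 had -4.38 ± 0.62 (SE, adjusted p = 6.02e-05), Oasl2 -4.18 ± 0.59 (adjusted p = 6.02e-05), Tubb2a -2.61, Parp14 -2.47, Lgals9 -2.37 and Cps1 -1.25. Lgals9, the gene of galectin-9, had 213, 176 and 179 CPM on day 1, against 782, 1128 and 1111 CPM on day 0 of RANKL, and 741 and 584 CPM on day 1, against 747 and 599 CPM on day 0 of the CSRM617 arm. The calls of Rtp4 and Lgals9 held in all 15 alternatives run for them. That of Oasl2 was lost in wells thinned to 1000 UMIs (-3.82, adjusted p = 0.0629).

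Of the positive differences, Cep85 had 3.24, Frmd4b 1.76, Ddit4 1.75, Id1 1.66 and Pik3ca 1.34. Id1 had 129, 108 and 140 CPM on day 1, against 42.7, 39.3 and 29.8 CPM on day 0 of RANKL, and 65.0 and 50.0 CPM on day 1, against 68.7 and 33.0 CPM on day 0 of the CSRM617 arm. The call of Id1 was lost without day 0 plate 1 of the CSRM617 arm (0.94, adjusted p = 0.558), and that of Frmd4b was lost in 11 of 15 alternatives.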

How the results depend on the processing

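The count of 2375 genes was 1769 to 2301 when 1 plate was left out, 868 in wells thinned to 1000 UMIs, 1565 in wells without a Spib UMI and 930 in wells low in enterocyte genes. The count of 284 in the CSRM617 arm was 181 by DESeq2, 110 in thinned wells and 112 to 185 with 1 plate left out, which leaves a day with 1 plate assumed to vary like the others. The interaction count of 32 was 54 by DESeq2 (16 positive and 38 negative, against 5 and 27), 6 in thinned wells and 13 to 36 with 1 plate left out. With the replicate number as a block the counts were 2332, 243 and 27. Same-numbered plates correlated at -0.0898, -0.00896 and -0.0531 in the RANKL arm, where the block rests on a number alone. In the CSRM617 arm, with 2 pairs, they correlated at 0.259 and share a tag in the deposited names whose meaning is not given in the labels. Of 160 named genes 157 were called, 92 of these in every alternative run, and 65 lost the call in at least 1. The sign of the change turned in thinned wells for Ltbr (0.10) and Erbb3 (0.088), and in wells low in enterocyte genes for Prim1 (-0.027), Mcm3 (-0.021), Mcm4 (-0.0799), Areg (0.074) and Creb3l3 (0.35). The cause was not tested. Thinned and selected wells hold fewer counts, and the 26 cells of day 0 plate 2 limit what that plate can show.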
